A study of Mus musculus with 15 samples.

Results

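The comparison concerned ageing in obesity: Kupffer cells of ob/ob mice at 14 weeks of age against Kupffer cells of ob/ob mice at 9 weeks. Its members were the 7 small RNA libraries, of 15 in all, whose labels gave the strain as ob/ob, 3 taken at 9 weeks and 4 at 14 weeks. The 8 remaining libraries came from Kupffer cells of lean C57BL/6J mice (wt), 4 at each age, and served as the background measured in the same way. Both groups of ob/ob libraries carried the same genotype and no treatment was named for any group, so age was the labelled difference. The labels named the cells as Kupffer cells and liver macrophages, and how they were purified, the sex of the mice and the number of animals behind a library were not given in the sources used here. Since nothing stated that the replicates were separate animals, the p-values below describe the scatter among libraries, part of which may be technical.

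Kupffer cells are the macrophages that reside in the sinusoids of the liver, where they take up particles and microbial products from portal blood. The ob/ob mouse lacks working leptin, the satiety hormone of fat tissue, overeats and becomes obese and insulin resistant early in life. A miRNA is a short RNA that guides silencing complexes to messenger RNAs, mainly by pairing through its seed, the bases at positions 2 to 8 from the 5′ end. Several miRNAs are known from macrophages: miR-142 is restricted to blood cells, miR-511 lies within the mannose receptor gene Mrc1, and the miR-146 family is induced by NF-κB and dampens toll-like receptor signalling through Traf6 and Irak1.

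The mature sequences of 12 miRNAs among those on which the comparison turned are given with the seed in capitals, from RefSeq (build GRCm38.p6), which held 218 of the 248 listed miRNAs by name. The first pair was the miR-146 family, and the next 4 led the lower side at 14 weeks or, for miR-191-5p, were the other arm of a leading miRNA. The last 6 led the higher side, shared the sequence of a leading miRNA (miR-199a-3p) or are taken up below (miR-142a-3p).
miR-146a-5p: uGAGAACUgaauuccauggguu
miR-146b-5p: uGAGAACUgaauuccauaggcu
miR-24-3p: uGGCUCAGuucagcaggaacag
miR-184-3p: uGGACGGAgaacugauaagggu
miR-191-3p: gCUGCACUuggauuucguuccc
miR-191-5p: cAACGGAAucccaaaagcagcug
miR-188-5p: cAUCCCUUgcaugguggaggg
miR-138-5p: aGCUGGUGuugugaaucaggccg
miR-199b-3p: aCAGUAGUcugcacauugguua
miR-199a-3p: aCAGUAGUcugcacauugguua
miR-19a-3p: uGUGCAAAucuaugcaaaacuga
miR-142a-3p: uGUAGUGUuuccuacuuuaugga
Of these, miR-146a-5p and miR-146b-5p shared a seed and differed only by G18A and U21C, with positions counted from 1 at the 5′ end and the base of miR-146a-5p given first. The mature miR-199a-3p and miR-199b-3p were identical over their 22 bases, so reads of the one cannot be told from reads of the other without a counting rule, which was not given in the sources used here. Seeds of their own belonged to the remaining 8.

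Values were RPM (reads per 1000000 reads), deposited as 1 table per age, and were rescaled across all 15 libraries by median ratios before testing. The 248 listed miRNAs summed to 242718 ± 10479 RPM (SD, n = 3) at 9 weeks and 313352 ± 27489 RPM (n = 4) at 14 weeks as deposited, without overlap (two-sided exact permutation p = 0.0571, where 0.0286 is the smallest p that 3 against 4 libraries allow). Depth, taken from the RPM that 1 read adds, was 31.0 ± 4.46 M reads (M, 1000000) at 9 weeks and 63.2 ± 24.1 M reads at 14 weeks, again without overlap (exact permutation p = 0.0571), so that 1 RPM stood for 25.9 to 98.1 reads. By the run names in the labels, all libraries of 9 weeks ran in sequencing lane 2, as did replicates 3 and 4 of 14 weeks, while replicates 1 and 2 of 14 weeks ran in lane 1, in both genotypes. Age also coincided with the table, so age and any difference in how the 2 tables were made cannot be told apart. The wt libraries shared these tables and lanes, and among them replicate 1 of 14 weeks was far below the rest, at a sum of 147387 RPM. The part of depth, sum and table in the results that follow was not tested.

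No miRNA passed the test between the ages on the rescaled values: limma called 0 of the 174 tested at an adjusted p under 0.05, a share of 0%. At an unadjusted p under 0.05 there were 20 miRNAs (11.5% of those tested), 10 at higher (5.75%) and 10 at lower levels (5.75%) at 14 weeks. In 18 miRNAs (10.3%) the 2 ages did not overlap, with 9 higher (5.17%) and 9 lower (5.17%). In 4 tested miRNAs (miR-191-3p, miR-142a-3p, miR-29c-5p and miR-99a-3p) the 1 RPM that the filter on low values asks for was reached in libraries of 1 age alone, which favours a difference. They made up 2 of the 20 and 2 of the 18, and nothing is read from their separation. The lowest adjusted p, 0.0644, belonged to miR-146a-5p, of the NF-κB-induced family, and miR-122-5p, the predominant miRNA of hepatocytes, both at lower levels at 14 weeks. On the higher side the lowest was 0.0708, for miR-188-5p. The values as deposited gave another picture: limma called 5 of 174 (2.87%), with miR-188-5p, miR-138-5p, miR-199b-3p and miR-19a-3p higher (2.3%) and miR-122-5p lower (0.575%), each at an adjusted p of 0.0459. The median log2 fold change of all tested miRNAs was -0.04 on the rescaled values and 0.37 as deposited, and the 51 miRNAs at an unadjusted p under 0.05 (29.3%) split into 46 higher (26.4%) and 5 lower (2.87%) as deposited. On that scale 37 miRNAs were higher without overlap (21.3%) and 4 lower (2.3%). The rescaled scale is used below, so each value is relative to that median. A log2 fold change here compares log2(RPM + 0.5) at 14 weeks with that at 9 weeks, and the added 0.5 shrinks the differences of miRNAs near 1 RPM.

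**Figure D1:**
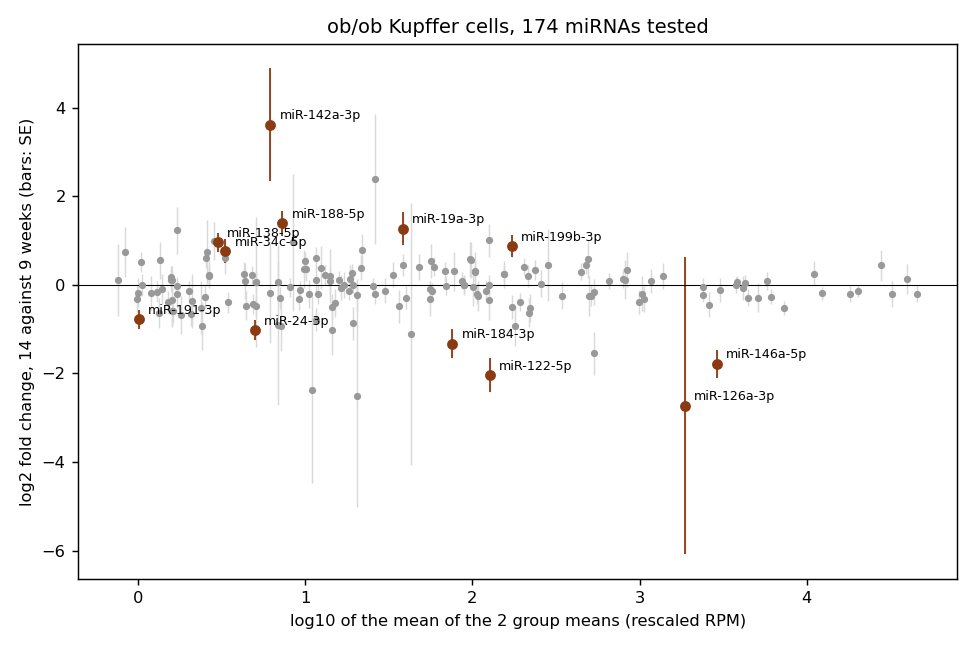
Log2 fold change between 14 and 9 weeks in ob/ob Kupffer cells (vertical axis, bars are the SE) against the log10 of the mean level in rescaled RPM (horizontal axis) for the 174 miRNAs tested, with 12 miRNAs discussed in the text labelled in brown. Most points lie near 0, the median being -0.04, and the wide bars of miR-142a-3p and miR-126a-3p belong to miRNAs with values at or near 0 in single libraries.

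The lower side at 14 weeks was led by miR-146a-5p (mature sequence on chromosome 11, 43374435 to 43374456, minus strand, in no annotated gene), which restrains NF-κB signalling in macrophages. It stood at 2779, 5544 and 5248 rescaled RPM in replicates 1 to 3 of 9 weeks and at 1141, 890.4, 1537 and 1620.5 in replicates 1 to 4 of 14 weeks. Each library of 9 weeks lay above each library of 14 weeks, and replicate 1 was the lowest of its group at 9 weeks. The log2 fold change was -1.78 ± 0.32 (SE, 95% confidence interval -2.51 to -1.05), or 3.43-fold lower, with a limma adjusted p of 0.0644. Without replicate 1 of 9 weeks the log2 fold change was -2.10 with an adjusted p of 0.0232. Leaving out that lowest library enlarges the difference, so this call is no support. With the test limited to miRNAs of at least 10 RPM the adjusted p was 0.0313. Over the alternatives the adjusted p lay between 0.0232 and 0.351. In wt the level ranged from 586 to 2257 RPM at 9 weeks and from 654 to 2295 at 14 weeks, so the ob/ob libraries of 14 weeks lay within the wt range and those of 9 weeks above it.

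Its family member miR-146b-5p, encoded in an intron of Mfsd13a (chromosome 19, 46342790 to 46342811, plus strand), stood at 451, 615 and 1319 RPM at 9 weeks. At 14 weeks it was at 171, 189, 215 and 509 RPM. Replicate 4 of 14 weeks lay apart from its group and above replicate 1 of 9 weeks, so the ages overlapped. The log2 fold change was -1.55 ± 0.49 (limma adjusted p = 0.211). All 7 ob/ob values sat close to or above the wt range of 36.9 to 172 RPM, the lowest being 171. The passenger arm miR-146a-3p remained below 0.7 RPM in every ob/ob library and was not tested.

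The other leading miRNA on this side, miR-122-5p, is made by hepatocytes, in which it supports lipid metabolism. It was at 140.0, 178 and 293 RPM at 9 weeks and at 40.8, 30.9, 46.9 and 81.6 RPM at 14 weeks, without overlap. The log2 fold change was -2.04 ± 0.38 (95% interval -2.92 to -1.16), or 4.10-fold lower (limma adjusted p = 0.0644). Without replicate 4 of 14 weeks, the highest of its group, the value was -2.30 with an adjusted p of 0.0374. Leaving out that library enlarges the difference, so this call is no support. With the test limited to miRNAs of at least 10 RPM the adjusted p was 0.0313, and the range over the alternatives was 0.0313 to 0.351. The wt libraries held 15.9 to 58.9 RPM at 9 weeks and 13.2 to 173 RPM at 14 weeks. The hepatocyte list as a whole had 7 of 9 members listed, none at 0 in all ob/ob libraries, and summed to 4993 to 7187 RPM at 9 weeks and 2756 to 7144 RPM at 14 weeks, with overlap, against 999 to 2923 in wt at either age. Most of that sum was miR-192-5p, at 4561, 5254 and 6609 RPM at 9 weeks and 2454, 4826, 4764 and 6812 RPM at 14 weeks, with a log2 fold change of -0.29 ± 0.33. Its cluster partner miR-194-5p had -0.38 ± 0.20 and miR-215-5p, which shares the seed family of miR-192, had 0.30 ± 0.43. Of the 4 hepatocyte members tested, 0 passed, 3 had negative and 1 positive values, with a median of -0.34 beside -0.04 for all miRNAs, and of 0.12 as deposited beside 0.37. In bulk libraries such as these, fewer cells of a type and less RNA per cell cannot be told apart.

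Further miRNAs at lower levels at 14 weeks did not overlap between the ages. miR-184-3p, known from epithelia such as the cornea (chromosome 9, 89802263 to 89802284, minus strand, in no annotated gene), was at 82.5, 139 and 103 RPM at 9 weeks and at 34.6, 27.4, 57.5 and 55.6 RPM at 14 weeks. Its log2 fold change was -1.33 ± 0.33 (limma adjusted p = 0.107), and both lane 1 libraries were below both lane 2 libraries of 14 weeks. miR-24-3p, made with miR-23 and miR-27 from 2 hairpins (chromosome 13, 63301251 to 63301272, and chromosome 8, 84208875 to 84208896), was at 7.80, 5.07 and 7.95 RPM and at 3.43, 2.63, 3.47 and 2.95 RPM. Its log2 fold change was -1.02 ± 0.23 (limma adjusted p = 0.0885). The list of miR-23, miR-27 and miR-24 clusters had 3 members tested and 0 passed, and the neighbour miR-27b-3p, which was looked up after its value had been seen, lay between 6200 and 14743 RPM in the 7 libraries with a log2 fold change of 0.26 ± 0.29.

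miR-191 is a broadly expressed miRNA that lies in an exon of the noncoding gene 4833445I07Rik on chromosome 9. Its abundant arm miR-191-5p was at 7764, 8597 and 9489 RPM at 9 weeks and at 6547, 5026, 6080.1 and 6516 RPM at 14 weeks, without overlap (-0.52 ± 0.16, limma adjusted p = 0.211). The rare arm miR-191-3p was at 1.37, 1.62 and 1.25 RPM and at 0.721, 0.504, 0.658 and 0.579 RPM (-0.78 ± 0.21, adjusted p = 0.174). It met the filter through the 9-week libraries alone, where it was higher, and did not meet it as deposited. On the deposited scale miR-191-5p had a log2 fold change of -0.06 (adjusted p = 0.852). The epithelial miR-200c-3p was also lower without overlap, at 2.19, 3.84 and 2.01 RPM against 1.65, 1.19, 1.39 and 1.58 RPM (-0.67 ± 0.26, limma adjusted p = 0.328).

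The higher side was led by miR-188-5p, from an intron of the chloride channel gene Clcn5 (X chromosome, 7248031 to 7248051, minus strand). It was at 3.98, 5.28 and 2.42 RPM at 9 weeks and at 8.29, 13.0, 10.8 and 10.8 RPM at 14 weeks, without overlap. The log2 fold change was 1.39 ± 0.28 (95% interval 0.74 to 2.04), or 2.62-fold higher (limma adjusted p = 0.0708). In wt the same miRNA ranged from 9.56 to 19.1 RPM at 9 weeks and from 4.53 to 12.02 RPM at 14 weeks, so the ob/ob libraries of 9 weeks lay below all wt libraries of that age and the highest ob/ob library of 14 weeks lay above the highest wt library of that age. The other arm, miR-188-3p, stayed under 0.2 RPM and was not tested. The neighbouring hairpin of miR-532 was looked up after its values had been seen. Its abundant arm miR-532-5p was at 334 to 453 RPM at 9 weeks and at 439 to 563 RPM at 14 weeks (0.30 ± 0.20, and 0.75 ± 0.22 as deposited with an adjusted p of 0.104). Its rare arm miR-532-3p, 388 bases from miR-188-5p, was at 8.79 to 11.4 RPM and 6.45 to 11.8 RPM (-0.32 ± 0.25, and 0.11 as deposited).

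miR-138-5p, known for its role at neuronal synapses and made from hairpins on chromosomes 8 and 9, was at 2.41, 1.79 and 1.48 RPM at 9 weeks. At 14 weeks it was at 4.35, 4.62, 3.70 and 3.77 RPM. The ages did not overlap, and the log2 fold change was 0.96 ± 0.22 (limma adjusted p = 0.0885). Like miR-188-5p it had been low at 9 weeks beside wt, where it ranged from 3.50 to 7.76 RPM at 9 weeks and from 1.67 to 5.12 RPM at 14 weeks.

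miR-19a-3p, a member of the miR-17-92 cluster, lies in the host transcript Mir17hg (chromosome 14, 115044048 to 115044070, plus strand). It was at 23.0, 20.4 and 19.7 RPM at 9 weeks and at 27.0, 80.4, 45.5 and 70.1 RPM at 14 weeks. All 4 libraries of 14 weeks lay above those of 9 weeks, but replicate 1 by little. The log2 fold change was 1.27 ± 0.37 (limma adjusted p = 0.177), and without replicate 1 of 14 weeks it was 1.58 with an adjusted p of 0.0491. Leaving out that library, the lowest of its group, enlarges the difference, so this call is no support. Every ob/ob value was above the wt range of 8.25 to 12.9 RPM. Of 4 tested members of the miR-17-92 family 0 passed. The neighbour miR-92a-3p, looked up after its value had been seen and 428 bases from miR-19a-3p, was at 1920.3 to 2736 RPM and 1907 to 2760.4 RPM. Its log2 fold change was -0.05 ± 0.22, or 0.40 as deposited. The same mature miRNA also comes from a hairpin on the X chromosome, so its values are not those of this cluster alone. The zeros of miR-20a-5p are taken up below.

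miR-199b-3p, with miR-199a-3p a marker of stellate and mesenchymal cells, was at 162, 110.5 and 94.6 RPM at 9 weeks and at 189, 282, 203 and 215 RPM at 14 weeks, without overlap (0.88 ± 0.25, limma adjusted p = 0.177). Its identical twin miR-199a-3p was at 498, 234 and 437 RPM and at 874, 747, 468 and 312 RPM, with overlap (0.58 ± 0.42, adjusted p = 0.576). The values of either name depend on how reads of the shared sequence were divided, so nothing is read from the separation of miR-199b-3p alone. miR-199b-3p was listed at 0 in 1 wt library of 9 weeks and 2 of 14 weeks. The p53-responsive miR-34c-5p was at 2.08, 1.66 and 3.41 RPM and at 4.63, 4.98, 4.24 and 3.31 RPM. Replicate 3 of 9 weeks overlapped replicate 4 of 14 weeks, and the log2 fold change was 0.77 ± 0.27 (limma adjusted p = 0.292).

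**Figure D2:**
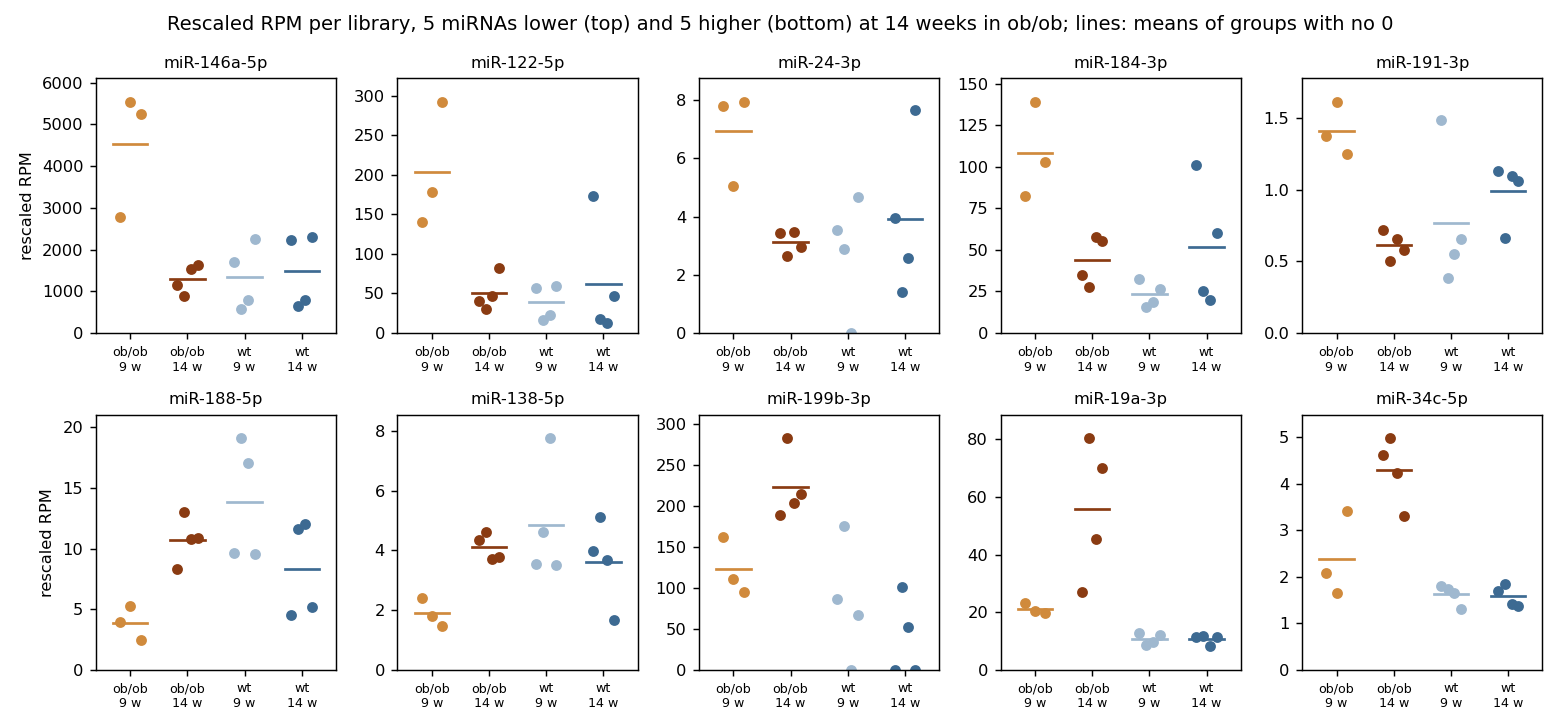
Rescaled RPM (vertical axes, each from 0) in every library of the 4 groups for the 5 miRNAs with the smallest p at lower levels (top) and at higher levels (bottom) at 14 weeks in ob/ob. Points are libraries in replicate order and lines the means of groups in which no library is listed at 0. The ob/ob ages are separate in 9 of the 10 panels, beside 10.3% of all miRNAs tested, and overlap in that of miR-34c-5p. The 10 were picked by their p in these same libraries, which favours separation, so nothing is read from the count. Among them, miR-191-3p met the filter through the 9-week libraries alone.

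Lane 2 alone left 3 libraries of 9 weeks and 2 of 14 weeks, and lane 1 held no library of 9 weeks, so no comparison of ages existed within it. In lane 2, limma called 0 of 168 miRNAs (0%), with 15 at an unadjusted p under 0.05 (8.93%), 6 higher (3.57%) and 9 lower (5.36%). All 10 leading miRNAs had the same sign there. They had been picked by their p over all 7 libraries, which include those of lane 2, so the shared sign is no independent evidence. Of the 10, miR-191-3p had also met the filter through the 9-week libraries alone. The log2 fold change was -1.45 ± 0.34 for miR-146a-5p and -1.64 ± 0.41 for miR-122-5p, each with an adjusted p of 0.338. It was 1.42 ± 0.35 for miR-188-5p and 1.41 ± 0.27 for miR-19a-3p, with the same adjusted p. The values for miR-24-3p, miR-191-3p and miR-138-5p were -0.98, -0.77 and 0.84, near those of all 7 libraries. That of miR-184-3p was -0.90 in lane 2 against -1.33 in all 7 libraries, that of miR-34c-5p 0.61 against 0.77, and that of miR-199b-3p 0.81 against 0.88. The twin miR-199a-3p had 0.04 ± 0.41 in lane 2, and its 2 libraries of lane 1 held the highest values of their group.

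**Figure D3:**
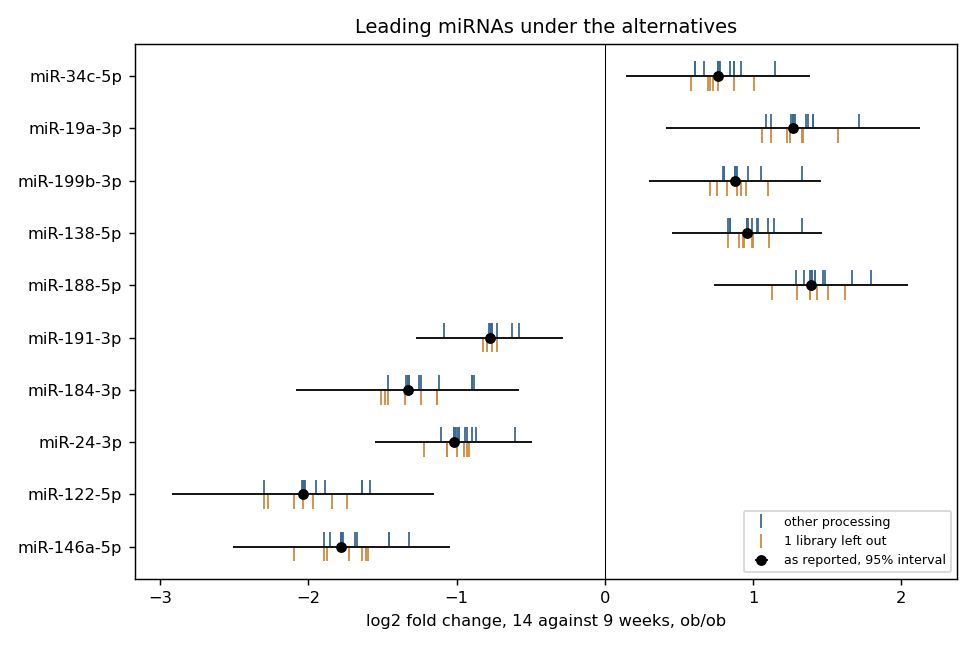
Log2 fold change between 14 and 9 weeks in ob/ob (horizontal axis) of the 10 leading miRNAs, with the value and 95% interval as reported in black, other ways of processing as blue ticks and fits that leave out 1 ob/ob library as orange ticks. miR-191-3p did not meet the filter as deposited. No tick crosses 0: miR-146a-5p lies between -2.10 and -1.32, miR-122-5p between -2.30 and -1.59 and miR-188-5p between 1.13 and 1.80. The 10 were picked by their p in these same libraries, so the shared sign is no independent evidence.

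The ages were compared in the same way in wt, and the difference between the 2 comparisons was tested over all 15 libraries. In wt, limma called 0 of 179 miRNAs (0%), with 11 at an unadjusted p under 0.05 (6.15%), 5 higher (2.79%) and 6 lower (3.35%). The difference, ob/ob minus wt, called 0 of 188 (0%), with 17 at an unadjusted p under 0.05 (9.04%), 9 positive (4.79%) and 8 negative (4.26%). Without wt replicate 1 of 14 weeks, the library with the low sum, it again called 0, with 13 at an unadjusted p under 0.05. Without ob/ob replicate 1 of 14 weeks it called miR-19a-3p (1.57 ± 0.31, adjusted p = 0.0202) and also miR-142a-3p. The library left out held the lowest 14-week ob/ob value of both, near 0 for miR-142a-3p, so nothing is read from these calls. The difference shares its ob/ob libraries with the comparison above and is no independent evidence for it. The smallest p belonged to miR-188-5p, whose log2 fold change was 1.39 in ob/ob and -0.76 ± 0.38 in wt, a difference of 2.15 ± 0.51 (limma adjusted p = 0.114). For miR-184-3p the values were -1.33 and 0.89 ± 0.51, a difference of -2.22 ± 0.66 (adjusted p = 0.237), and its highest wt value of 14 weeks was the 101 RPM of replicate 1. miR-138-5p differed by 1.36 ± 0.43, miR-191-3p by -1.07 ± 0.35 and miR-19a-3p by 1.27 ± 0.41, each with an adjusted p of 0.237. miR-34c-5p (0.79 ± 0.29), miR-676-3p (-1.13 ± 0.41) and miR-146a-5p (-1.92 ± 0.73) each had an adjusted p of 0.351. miR-122-5p differed by -2.18 ± 1.03 (adjusted p = 0.538). None of these differences passed the threshold, so none of the values above was shown to be particular to ob/ob.

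**Figure D4:**
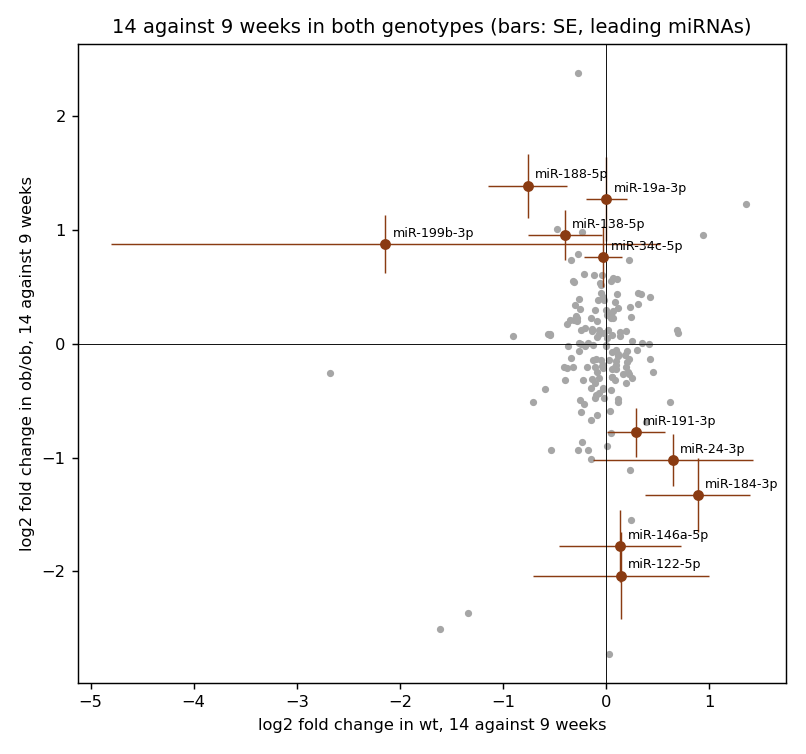
Log2 fold change between 14 and 9 weeks in ob/ob (vertical axis) against that in wt (horizontal axis), grey points for miRNAs tested in both and brown points with SE bars for the 10 leading miRNAs in ob/ob. miR-188-5p and miR-184-3p lie on opposite sides of 0 in the genotypes, and miR-146a-5p and miR-122-5p lie near 0 in wt, with 0.14 ± 0.59 and 0.14 ± 0.85.

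Another pair of miRNAs with small p in that test had values at or near 0 in ob/ob libraries. miR-142a-3p, the blood-cell miRNA, was listed at 0.186, 0.131 and 0 RPM at 9 weeks and at 0.133, 14.4, 15.5 and 19.1 RPM at 14 weeks. Replicates 2 to 4 of 14 weeks thus stood apart from all 12 remaining libraries of the series, in which it did not exceed 0.186 RPM. It met the filter on low values through the 14-week libraries alone, and its log2 fold change was 3.62 ± 1.27 (limma adjusted p = 0.307). Leaving out replicate 1 of 14 weeks removes the one low value of that age and gave 4.80, so the call made without it is no support. The partner arm miR-142a-5p, from the same hairpin on chromosome 11, was at 2549, 3585 and 3251 RPM and at 1874, 2986, 2935 and 4015 RPM, with -0.12 ± 0.27. miR-375-3p, known from pancreatic islets and epithelia, was listed at 0.483, 1.004 and 1.36 RPM at 9 weeks and at 0 in all 4 libraries of 14 weeks, while wt libraries of 14 weeks held 0.365 to 2.46 RPM. It was too rare for the test within ob/ob, and its difference from wt was -2.33 ± 0.57 (limma adjusted p = 0.114).

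The cells' most abundant miRNAs did not pass the test between the ages. miR-22-3p, which made up 16.0% of the listed miRNAs in ob/ob, was at 49159 ± 8575 RPM (SD, n = 3) at 9 weeks and at 42752 ± 7943 RPM (n = 4) at 14 weeks (-0.21 ± 0.19). miR-126a-5p, an endothelial miRNA from the Egfl7 gene, made up 13.9% and stood at 39495 ± 18655 and 39793 ± 4711 RPM (0.13 ± 0.33). It was lowest in replicate 2 of 9 weeks, at 19709 RPM against 42009.9 and 56765 in the others. miR-21a-5p, induced in inflammation and fibrosis, made up 11.2% (-0.21 ± 0.29), miR-10a-5p 9.998% (0.44 ± 0.36) and miR-26a-5p 7.06% (-0.14 ± 0.14). The signs of miR-22-3p, miR-21a-5p and miR-26a-5p were positive as deposited, at 0.25, 0.24 and 0.31.

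The marker lists gave the levels of miRNAs known from macrophages and from other cell types. The myeloid list, with miR-142a-5p, miR-142a-3p and miR-511-3p listed of 6, summed to 2646 to 3700 RPM at 9 weeks and 1994 to 4138 RPM at 14 weeks, and miR-511-3p was at 97.6, 115 and 68.8 RPM and at 120.1, 108, 125 and 104 RPM (0.31 ± 0.22). The endothelial pair summed to 20864 to 58957 RPM and 34564 to 46619 RPM. Sums of different miRNAs do not measure the shares of cell types, and the myeloid list lacked members, so the sums of different lists are not set against each other. Stellate and mesenchymal markers summed to 1168 to 2110 RPM and 1581 to 2522 RPM, lymphocyte markers to 6106 to 7608 RPM and 4817 to 6672 RPM, and biliary and epithelial markers to 68.8 to 101 RPM and 45.1 to 90.0 RPM. Of the erythroid list only miR-144-5p was analysed here, at 26.9, 18.5 and 18.9 RPM and at 9.70, 27.1, 15.9 and 23.9 RPM, against 0.45 to 1.24 RPM in wt. The sums of all 7 marker lists overlapped between the ages, and no listed marker was at 0 in all ob/ob libraries. Their part in the results was not tested.

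Within the marker lists 0 members passed on the rescaled scale. Of the 6 stellate and mesenchymal members tested, 5 had positive values, with a median log2 fold change of 0.60 beside -0.04 for all miRNAs, and 1 of them, miR-199b-3p, did not overlap between the ages, beside 10.3% of all miRNAs. The sequence of miR-199b-3p is that of miR-199a-3p, another of the 6, so these do not count as separate members. A further positive member, miR-145a-5p (0.96 ± 1.55), was listed at 0 in replicate 3 of 9 weeks and was as low as 0.419 RPM at 14 weeks. In lane 2 alone the members were not mostly positive. There miR-214-5p had 0.25 ± 0.44, against 0.62 ± 0.37 in all libraries, miR-199b-3p had 0.81 and miR-199a-3p 0.04. On the negative side in lane 2 were miR-143-3p at -0.09, miR-145a-5p at -0.09 and miR-214-3p at -0.39. Of 3 lymphocyte members tested, miR-150-5p, abundant in mature lymphocytes, was at 188, 167 and 166 RPM and at 254, 208, 207 and 260.2 RPM, without overlap (0.41 ± 0.19, limma adjusted p = 0.392). Of 4 biliary and epithelial members, 2 had positive and 2 negative values.

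The inflammation list, made of miRNAs induced by toll-like receptors and cytokines, had 14 of 15 members listed and 10 tested, of which 0 passed, 7 had negative and 3 positive values. Its median was -0.18 beside -0.04 for all miRNAs, and 0.22 as deposited beside 0.37. The 2 of 10 members at an unadjusted p under 0.05, beside 11.5% of all miRNAs, were miR-146a-5p and miR-146b-5p. The list of miRNAs reported to act on Nfe2l2 and Keap1, which govern the antioxidant response that the series' title names, had 5 members tested and 0 passed. Their median was -0.24, with miR-144-5p at -0.24 ± 0.36 and miR-142a-5p at -0.12 ± 0.27, and 0.20 as deposited.

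Among miRNAs linked to lipid metabolism and obesity 7 were tested and 0 passed, with a median of 0.01. The member with the smallest p was miR-335-5p, from an intron of the imprinted gene Mest (chromosome 6, 30741314 to 30741336, plus strand), a gene that marks expanding fat tissue. It was at 107, 45.3 and 106 RPM at 9 weeks and at 215, 193, 134 and 122 RPM at 14 weeks. The ages did not overlap, and the log2 fold change was 1.01 ± 0.37 (limma adjusted p = 0.303), with 0.67 ± 0.43 in lane 2. The other arm, miR-335-3p, was at 54.1, 22.4 and 68.2 RPM and at 77.8, 73.5, 59.8 and 48.3 RPM (0.54 ± 0.39). miR-103-3p, which restrains insulin signalling, was at 50.3 ± 4.49 RPM (SD, n = 3) and 68.2 ± 15.6 RPM (n = 4), a log2 fold change of 0.41 ± 0.22.

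The families and clusters were likewise without a call. In the let-7 family 7 of 9 values were negative, with a median of -0.20, and all 9 were positive as deposited, with a median of 0.25. In the miR-10 and miR-99 family all 6 values were positive on both scales, with medians of 0.36 and 0.82. The median in wt was 0.31. miR-99a-3p had met the filter through the 14-week libraries alone and was not tested in lane 2. The sign was not shared in lane 2 alone, where miR-100-5p had -0.58 and miR-99a-5p -0.10. The others there were miR-10a-5p at 0.12, miR-10a-3p at 0.06 and miR-10b-5p at 0.002. In the miR-29 family, which silences collagen messenger RNAs, 4 of 5 values were positive with a median of 0.30, and miR-29c-5p was at 0.966, 0.699 and 0.644 RPM and at 1.42, 1.58, 1.07 and 1.22 RPM, so that it met the filter through the 14-week libraries alone. The ages overlapped for miR-29c-3p (0.30 ± 0.21) and miR-29b-3p (0.39 ± 0.29). In the miR-15 and miR-16 family 6 of 7 values were positive with a median of 0.20, led by miR-195a-5p (0.57 ± 0.39) and miR-497a-5p (0.55 ± 0.41). Both were highest in the lane 1 libraries and had 0.15 and 0.04 in lane 2. The one negative value was that of the abundant miR-16-5p, at 12482, 14754 and 12356 RPM at 9 weeks and at 12077, 10269, 11940 and 11758 RPM at 14 weeks, lower without overlap (-0.20 ± 0.14, and 0.26 as deposited). In the miR-30 family 6 of 8 were negative with a median of -0.10. Among p53 and hypoxia responsive miRNAs 4 were tested with a median of -0.14, in the hairpin cluster that holds let-7e and miR-125a 3 with a median of 0.03, and of miR-221 and miR-222 only miR-222-3p, at -0.50. None of them passed.

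The imprinted Dlk1-Dio3 cluster on chromosome 12 had 6 members tested, 5 with negative values and a median of -0.72, and 0 passed. In all 5 with negative values replicate 3 of 9 weeks stood out. miR-127-3p was at 11.7, 7.73 and 43.7 RPM at 9 weeks and at 6.15, 5.65, 8.15 and 12.01 RPM at 14 weeks, a log2 fold change of -1.01 ± 0.56. Replicate 3 of 9 weeks was likewise the highest for miR-411-5p (20.6 RPM against 2.60 to 7.72 RPM in the other ob/ob libraries) and for miR-541-5p (7.65 against 0.797 to 2.08 RPM). It held 7.27 RPM of miR-410-3p against 0.917 to 2.73 RPM in the others, and 6.06 RPM of miR-136-3p against 0.655 to 2.87 RPM. Without it the log2 fold changes were -0.30 for miR-127-3p, -0.26 for miR-411-5p and -0.26 for miR-541-5p. miR-434-3p was lowest in that library, at 0.189 RPM, and had a log2 fold change of 0.55 ± 0.42.

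The spread between libraries set what the comparison could show. The median SE of a log2 fold change was 0.28 in ob/ob and 0.23 in wt. The 95% interval lay within ±1 for 87 of 174 miRNAs in ob/ob (50.0%) and for 134 of 179 in wt (74.9%), and for the remainder the interval reached a log2 fold change of 1 or beyond. A log2 fold change of at least 1 in size was seen for 16 miRNAs in ob/ob and 6 in wt. Of the 16, 6 were listed at 0 in some ob/ob library and at 10 RPM or more in another.

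The deposited tables listed 8 miRNAs at exactly 0 in at least 1 ob/ob library and at 10 RPM or more in another, and these were singled out after their values had been seen. miR-126a-3p, the partner arm of miR-126a-5p, was at 2488, 1155 and 2192 RPM at 9 weeks and at 3119.9, 0, 2476 and 1581 RPM at 14 weeks. Its log2 fold change was -2.72 ± 3.36 with the 0 of replicate 2 and 0.32 without that library, while miR-126a-5p in the same library was at 42258 RPM. The sign therefore rested on the single 0. Within the miR-17-92 cluster, miR-20a-5p was at 44.1, 0 and 35.7 RPM and at 0, 0, 0 and 56.7 RPM. miR-92a-1-5p, from the same host transcript, was at 28.1, 0 and 21.0 RPM and at 0, 0, 0 and 22.9 RPM. The same 9 of the 15 libraries held both at 0, while miR-19a-3p from the hairpin 135 bases upstream of miR-20a-5p was above 8 RPM in every library. miR-145a-5p and miR-450a-5p were both at 0 in replicate 3 of 9 weeks, and miR-30a-3p was at 0 there and in replicate 3 of 14 weeks. miR-151-3p was at 0 in 6 of the 7 ob/ob libraries and at 1062 RPM in replicate 3 of 9 weeks. Among wt libraries it was at 1280.0 RPM in replicate 4 of 14 weeks and at 3.80 RPM or less in the others. A 0 beside such values may be a failed assignment of reads, which was not tested, and no mean is given for these miRNAs.

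**Figure D5:**
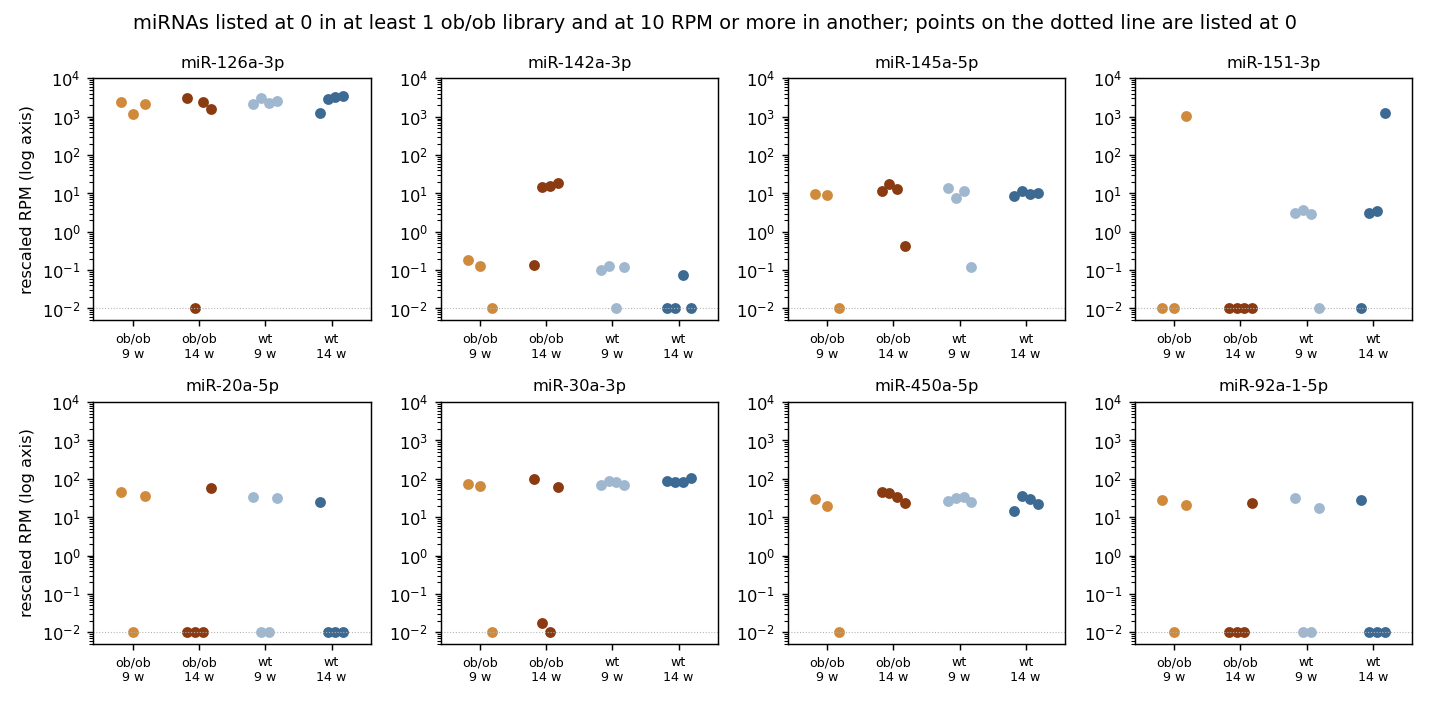
Rescaled RPM (vertical axes, log scale) in every library of the 4 groups for the 8 miRNAs listed at 0 in at least 1 ob/ob library and at 10 RPM or more in another, with values listed at 0 drawn on the dotted line. miR-20a-5p and miR-92a-1-5p have their zeros in the same 9 libraries, and miR-142a-3p is above 1 RPM only in replicates 2 to 4 of ob/ob at 14 weeks.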

How the data were processed

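Small RNA of Kupffer cells had been extracted with a column kit, prepared with the TruSeq Small RNA kit and sequenced on an Illumina HiSeq, per the labels' protocols. Tools named in the submitters' processing notes are cutadapt and bcl2fastq, with mm10 and GRCm38.p5 as builds. Which aligner, counter and miRNA annotation served was not given in the sources used here. All deposited values, 1 table per age with the same 248 miRNAs, were taken as RPM made by the authors: the unit was inferred from the values. Below 1000 RPM, all of the 178 to 212 values per library were whole multiples of 1 step within 0.1 read (100%), and this step gave the depth. No count model was run.

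Each library was divided by its median ratio over 120 miRNAs that were never at 0 and averaged at least 5 RPM over the 15 libraries. limma 3.58.1 in R 4.3.3 (trend, robust, Benjamini-Hochberg, threshold 0.05) was applied to log2(RPM + 0.5) of miRNAs with at least 1 RPM in at least 3 compared libraries. The code was also run on simulated data, whose outcome is not given here and is not used as support. The design had foreseen limma for normalized values. The difference from wt was an interaction over all 15 libraries. Sums and depths had two-sided exact permutation tests of the absolute difference of means. Alternatives varied the scaling, pseudocount, filter, zeros, lane, GC content, replicate block and single libraries.

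The members and the 21 lists were chosen with earlier results of these data known. Named miRNAs were the 5 smallest p in each direction (none having passed the threshold), up to 4 members per list, the 5 smallest p per direction of the difference from wt, the 5 most abundant, and other arms or shared seeds of the leading ones. Positions are 1-based on GRCm38, from RefSeq, with host genes from GENCODE vM21.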

Additional observations from a re-analysis of the deposited data

Results flagged for a closer look

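In 2 of the 45 groups of 4 libraries examined, 1 library stood far from the other 3, and chance alone gives this in about 1 in 20 groups. Both concerned replicate 4 of ob/ob at 14 weeks. miR-146b-5p was at 508.8 rescaled RPM there and at 171, 189 and 215 RPM in replicates 1 to 3. miR-20a-5p was at 56.68 RPM there and listed at 0 in replicates 1 to 3. The cause was not tested.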

How the results depend on the processing

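Between 14 and 9 weeks in ob/ob, limma called 0 miRNAs under 17 of 23 alternatives and up to 5 under the others. As deposited, 5 were called (miR-188-5p 1.80, miR-138-5p 1.33, miR-199b-3p 1.33, miR-19a-3p 1.72 and miR-122-5p -1.59). Without a filter on low values 1 was called (miR-375-3p, -1.49, adjusted p = 0.0347), and with a filter at 10 RPM, which tests fewer miRNAs, 2 (miR-146a-5p -1.78 and miR-122-5p -2.04). Leaving out 1 library gave 0 to 2 calls: miR-146a-5p without replicate 1 of 9 weeks, miR-122-5p without replicate 4 of 14 weeks, and miR-142a-3p and miR-19a-3p without replicate 1 of 14 weeks. In each case the library left out was the one of its age nearest to the other age, so none of these calls is support. For the difference from wt, limma called 0 under 27 of 29 alternatives and 0 to 2 with 1 library left out. The 2 were miR-19a-3p (1.57) and miR-142a-3p, both without ob/ob replicate 1 of 14 weeks and likewise no support. With the replicate number as a block it called 4 (miR-146a-5p -2.04, miR-146b-5p -2.15, miR-184-3p -2.35 and miR-188-5p 2.14), but replicates of 1 number share only the number: their deviations from the group means correlated at 0.21, -0.06 and 0.01 in ob/ob. Within ob/ob the replicate block called 0. In wt, 0 were called in all 23 alternatives, and the sums and depths differed in the same direction in all 8 alternatives each. Among the miRNAs followed through all alternatives, values that took the other sign were, as deposited, miR-194-5p 0.068, miR-192-5p 0.16, miR-144-5p 0.20, miR-142a-5p 0.33, miR-21a-5p 0.24, miR-22-3p 0.25 and miR-26a-5p 0.31. With quantile normalization they were miR-192-5p 0.087 and miR-142a-5p 0.24. With exact zeros as missing they were miR-126a-3p 0.32 and miR-20a-5p 0.51. In lane 2 alone, and equally with lane as a covariate, they were miR-192-5p 0.074, miR-215-5p -0.15, miR-126a-3p 0.10, miR-142a-5p 0.15, miR-21a-5p 0.18 and miR-22-3p 0.018. Leaving out 1 library moved miR-215-5p between -0.17 and 0.57 and miR-126a-5p between -0.30 and 0.46, with the low end without replicate 2 of 9 weeks. It moved miR-144-5p between -0.43 and 0.046, miR-142a-5p between -0.28 and 0.081 and miR-21a-5p between -0.35 and 0.012, with the high end without replicate 1 of 14 weeks, and miR-126a-3p between -3.88 and 0.32, with the high end without replicate 2 of 14 weeks. Beyond the construction named, the cause was not tested. Count models on recovered reads were not run, because whole reads were not established for the high values, and the GC correction covered the 87.9% of miRNAs with a GC value. Within ob/ob, counting error at 1 RPM is largest in the libraries of 9 weeks, with 25.9 to 33.9 reads. In wt, 1 RPM stood for 13.4 to 22.8 reads at 9 weeks and 9.08 to 39.0 reads at 14 weeks. Reads are not independent molecules.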
